A study of Mus musculus with 16 samples.

Results

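7 genes of the type 2 chemokine system were followed in mouse lung: the eotaxins Ccl11 and Ccl24, the chemokines Ccl8, Ccl17 and Ccl22, and the receptors Ccr3 and Ccr4. They were taken as every probe set annotated with exactly 1 of these symbols or a synonym. This gave 7 genes of 18193 with a named probe set, each with a single probe set among the 45037 tested: 1417789_at (Ccl11), 1450488_at (Ccl24), 1419684_at (Ccl8), 1419413_at (Ccl17), 1417925_at (Ccl22), 1422957_at (Ccr3) and 1421655_a_at (Ccr4). No probe set listed a member beside another symbol.

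Chemokines are small secreted proteins that direct the migration of leukocytes through receptors on the cell surface. The eotaxins act on Ccr3, which is carried mainly by eosinophils, and are known for drawing these cells into allergic airways. Ccl17 and Ccl22 act on Ccr4, a receptor of type 2 helper and regulatory T cells. In the mouse, Ccl8 acts on Ccr8, another receptor of type 2 T cells.

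Each of the 16 arrays held RNA of 1 left lung of a Balb/c mouse aged 23 weeks, with 4 arrays in each of 4 groups: SHS females, air females, SHS males and air males. During gestation the SHS mice were exposed to sidestream smoke, a surrogate of second-hand smoke, with a particle load of 10 mg/m3 (5 h daily, 7 days weekly), and the air mice to filtered air. All groups, the air groups included, were sensitized with injected ovalbumin (OVA), an egg protein, at 19 and 21 weeks and inhaled it in weeks 22 and 23, so no lung without allergen was compared. The labels name 4 animals per group but not the litters. Whether animals of a group shared a mother is thus unknown, and a p-value measures the spread between these animals only.

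Values are log2 intensities, on which a difference of 1 is a doubling. Differences are SHS minus air within a sex, and the levels of females and males were not set against each other, since correlations across probe sets ran from 0.990 to 0.998 within a sex but only from 0.959 to 0.974 between the sexes. The SHS female replicate 4 correlated at 0.992 on average with its own group and at 0.995 with the air females, and its values are given apart below. The lung epithelial genes Sftpc, Ager and Scgb1a1 lay between 14.2 and 15.2 on every array, near the top of the range of all values, and Sftpb between 11.69 and 13.94 (median 12.66). In whole lung, more cells of a type and more RNA per cell cannot be told apart.

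RefSeq's promoter table for GRCm38.p6 held 5 of the 7 genes. The 250 bases before the transcription start of the chemokines Ccl17, Ccl22 and Ccl8 are shown because these genes were called in 1 or both sexes. They lie at chr8:94810203-94810452, chr8:94745434-94745683 and chr11:82114935-82115184, all on the + strand, and capitals mark motif matches.
Ccl17: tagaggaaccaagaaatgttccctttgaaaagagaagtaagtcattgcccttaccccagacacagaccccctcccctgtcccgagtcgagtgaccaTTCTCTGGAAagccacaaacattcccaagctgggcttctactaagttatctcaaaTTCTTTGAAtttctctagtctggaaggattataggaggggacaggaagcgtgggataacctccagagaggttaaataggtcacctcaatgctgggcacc
Ccl22: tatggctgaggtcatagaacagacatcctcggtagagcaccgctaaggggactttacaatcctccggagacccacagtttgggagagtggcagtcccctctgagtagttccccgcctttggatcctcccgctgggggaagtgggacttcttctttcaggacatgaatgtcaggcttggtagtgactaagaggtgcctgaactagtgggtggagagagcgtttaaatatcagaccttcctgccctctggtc
Ccl8: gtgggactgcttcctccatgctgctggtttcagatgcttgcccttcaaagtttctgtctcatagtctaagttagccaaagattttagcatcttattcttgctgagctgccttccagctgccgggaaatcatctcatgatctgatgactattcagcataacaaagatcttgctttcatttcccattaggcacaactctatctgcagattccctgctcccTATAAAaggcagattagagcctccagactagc
The motifs were searched on both strands from 250 bases before to 50 bases after the start. TTCNNNNGAA, the spacing that STAT6 prefers, matched once in Ccl17 at bases -154 to -145 from the start, and TTCNNNGAA, the general STAT motif, matched once at -99 to -91. The TATA motif TATAAA matched once in Ccl8, at -32 to -27. None of these 3 motifs, nor the NF-kB motif, matched in the Ccl22 window, and the NF-kB motif matched once among the 5 promoters, in Ccr3 at -179 to -170. Of 32817 RefSeq windows of 300 bases, 6.94% held TTCNNNNGAA, 8.29% TTCNNNGAA, 13.6% TATAAA and 4.50% the NF-kB motif, and a match describes letters, not a bound site.

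The 5 chemokines averaged 1.59-fold to 4.97-fold higher in SHS lungs than in air lungs of the same sex, and the receptors showed no such difference. Of the 5 chemokines, 3 passed the test in females (Ccl24, Ccl8 and Ccl22) and 4 in males (Ccl24, Ccl8, Ccl17 and Ccl11), at an adjusted p under 0.05 by limma's moderated test with Benjamini-Hochberg adjustment over all 45037 probe sets. No member was called lower. Among all probe sets, 2.36% were called higher and 0.517% lower in females, and 3.07% higher and 2.11% lower in males. Ccl24 and Ccl8 were called higher in both sexes, against 1.33% of all probe sets. The median difference of the 7 members was 0.77 in females and 0.73 in males, beside -0.01 and -0.00 over all probe sets. At an unadjusted p under 0.05, the 5 chemokines passed in each sex and the 2 receptors in neither.

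**Figure D1:**
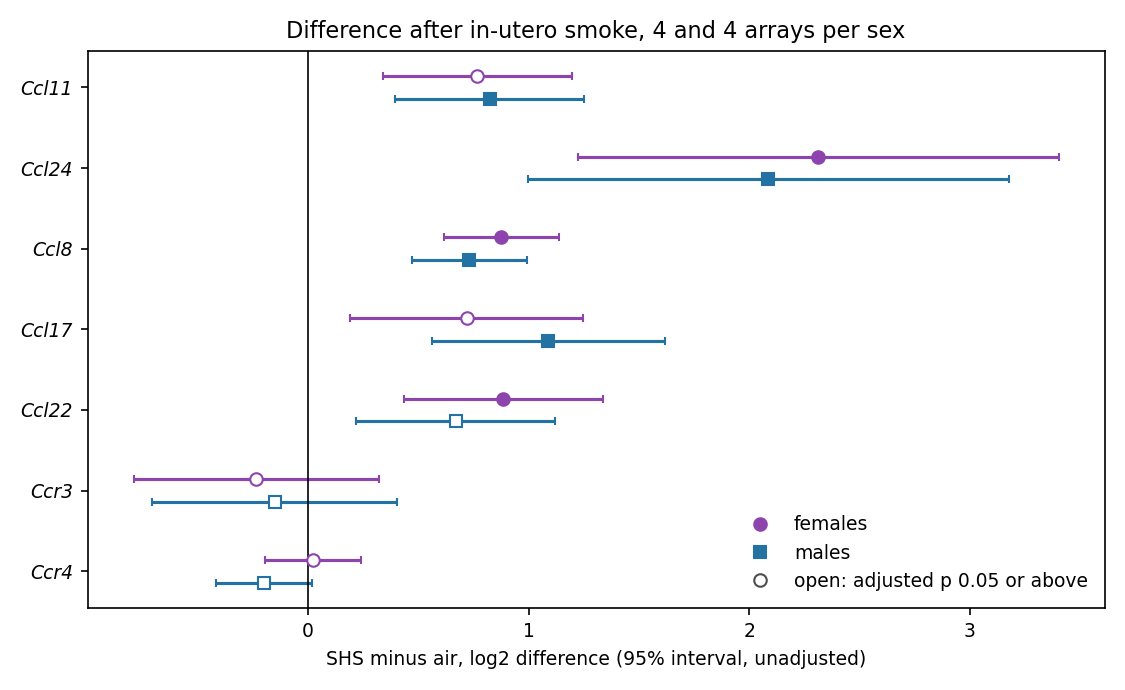
Log2 difference between SHS and air lungs for each gene in females (circles) and males (squares), with unadjusted 95% intervals from the model over 16 arrays. Filled symbols passed an adjusted p of 0.05; Ccl24 lies at 2.31 and 2.09, the other chemokines between 0.67 and 1.09, and the intervals of Ccr3 and Ccr4 include 0.

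Of the eotaxins, Ccl24 (eotaxin-2, made largely by macrophages) showed the largest change of the 7 genes. Its log2 intensity was 10.53, 11.83, 11.55 and 8.44 in SHS females, against 8.29, 8.24, 8.16 and 8.41 in air females. All 4 SHS females lay above every air female, but replicate 4 only just. In SHS males it was 10.85, 10.71, 10.49 and 9.22, against 7.93, 8.57, 7.79 and 8.63 in air males, and these groups did not overlap either. The difference was 2.31 ± 0.52 (SE) in females, 4.97-fold (adjusted p = 0.0199, limma), and 2.09 ± 0.52 in males, 4.25-fold (adjusted p = 0.0261, limma). Ordered by log2 difference among 18193 genes, Ccl24 stood at place 6 from the top in females and 8 in males.

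The spread of Ccl24 was uneven between the female groups, with a mean of 10.59 ± 1.53 in SHS females and 8.28 ± 0.11 in air females (SD, n = 4 each). It was 10.32 ± 0.75 in SHS males and 8.23 ± 0.43 in air males. Without SHS female replicate 4 the female difference was 3.03 (adjusted p = 3.74e-05, limma). The female call was lost on leaving out SHS female replicate 1, 2 or 3 or air female replicate 2 or 3 (differences 1.90 to 2.33, adjusted p 0.0555 to 0.0766 by limma). The male call was lost without SHS male replicate 1, 2 or 3 or air male replicate 1 or 3 (1.91 to 2.03, adjusted p 0.0732 to 0.0816 by limma). A prior on the variance that follows intensity also ended both calls (adjusted p = 0.0626 in females and 0.0699 in males), as did the 8 female arrays fitted alone for females (0.0819).

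Ccl11 (eotaxin-1, made by fibroblasts, epithelium and smooth muscle) had log2 intensities of 10.38, 10.49, 10.75 and 9.66 in SHS females, against 9.80, 9.28, 9.40 and 9.74 in air females. SHS females 1 to 3 were above every air female, and replicate 4 was below the higher 2. In SHS males it read 10.82, 10.81, 10.51 and 10.26, against 9.47, 9.98, 9.54 and 10.12 in air males, with no overlap. The male difference, 0.82 ± 0.20 (1.77-fold), passed the test (adjusted p = 0.026, limma). The female difference of 0.77 ± 0.20 (1.70-fold) was about as large and missed it (adjusted p = 0.051, limma). It passed without SHS female replicate 4 (0.99, adjusted p = 0.00204), air male replicate 4 (0.77, adjusted p = 0.0489) or SHS male replicate 4 (0.77, adjusted p = 0.0457), all by limma. The male call was lost without SHS male replicate 1, 2 or 3 or air male replicate 1 or 3 (0.72 to 0.85, adjusted p 0.0564 to 0.0861 by limma).

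**Figure D2:**
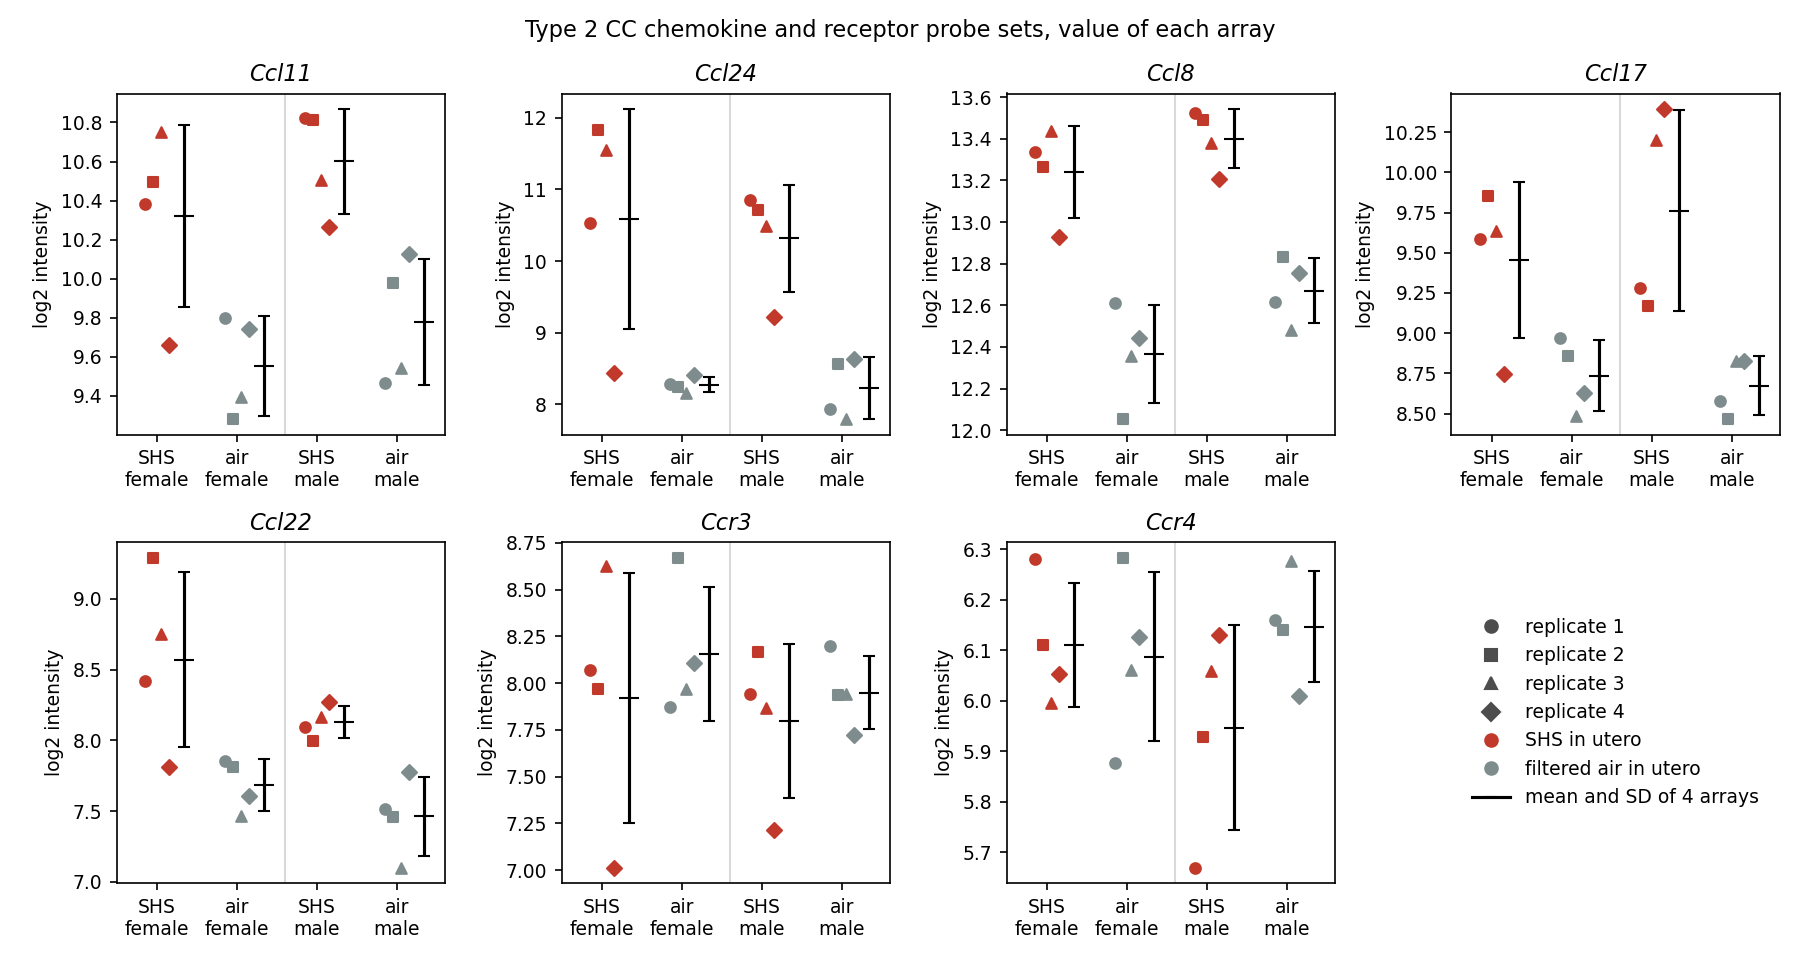
Log2 intensity of each gene on every array (marker shape is the replicate number), with the mean and SD of the 4 arrays of each group; panels have separate vertical scales that do not start at 0. Ccl8 and Ccl24 separate SHS from air in both sexes, and SHS female replicate 4 (diamond) is the lowest of its group for all 5 chemokines.

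Ccl8 varied least relative to its change. It read 13.33, 13.27, 13.44 and 12.93 in SHS females, against 12.61, 12.05, 12.36 and 12.45 in air females, and every SHS value lay above every air value. In SHS males it read 13.52, 13.49, 13.38 and 13.21, against 12.62, 12.83, 12.48 and 12.75 in air males, again without overlap. The differences were 0.88 ± 0.12 in females (1.83-fold, adjusted p = 0.000806, limma) and 0.73 ± 0.12 in males (1.66-fold, adjusted p = 0.00258, limma). Ccl8 was called in all 16 fits that each left out 1 array, in females (0.77 to 0.98) and in males (0.67 to 0.79). Its receptor in the mouse, Ccr8, differed by 0.26 in females (adjusted p = 0.448, limma) and 0.00 in males (adjusted p = 0.995, limma). All Ccr8 values lay between 4.67 and 6.17, below the 40th percentile of probe set means, 6.38, so a change in this receptor may be poorly measured.

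Of the Ccr4 ligands, Ccl17 read 9.59, 9.85, 9.64 and 8.75 in SHS females, against 8.97, 8.86, 8.48 and 8.63 in air females. Replicates 1 to 3 of the SHS females lay above all air females and replicate 4 among them. SHS males read 9.28, 9.17, 10.20 and 10.39, against 8.58, 8.47, 8.83 and 8.83 in air males. The male groups did not overlap, and SHS males 3 and 4 stood well above SHS males 1 and 2. The male difference of 1.09 ± 0.25 (2.13-fold) passed the test (adjusted p = 0.0178, limma), and the female difference of 0.72 ± 0.25 (1.65-fold) did not (adjusted p = 0.143, limma). Without SHS female replicate 4 the female difference passed (0.95, adjusted p = 0.0169, limma). The male call was lost without SHS male replicate 3 (0.94, adjusted p = 0.0683, limma) or air male replicate 1 (1.06, adjusted p = 0.0514, limma).

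Ccl22, the other Ccr4 ligand, read 8.42, 9.29, 8.75 and 7.81 in SHS females, against 7.85, 7.81, 7.46 and 7.61 in air females. SHS female 4 again lay among the air females. In SHS males it read 8.09, 7.997, 8.17 and 8.27, a narrow range that lay wholly above the 7.51, 7.46, 7.10 and 7.78 of the air males. Here the female difference passed, at 0.89 ± 0.21 (1.85-fold, adjusted p = 0.031, limma), and the male difference of 0.67 ± 0.21 (1.59-fold) did not (adjusted p = 0.0794, limma). The female call was lost without SHS female replicate 1, 2 or 3 or air female replicate 2, 3 or 4 (0.64 to 0.94, adjusted p 0.062 to 0.107 by limma) and with the 8 female arrays alone (adjusted p = 0.122). The male difference passed with the 8 male arrays alone (adjusted p = 0.0156, limma), and without SHS female replicate 2 (0.67, adjusted p = 0.0244) or 4 (0.67, adjusted p = 0.0173), arrays that enter the male comparison only through the shared estimate of the spread.

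Counted by array, all 4 SHS animals lay above all 4 air animals for 2 of the 7 genes in females (Ccl24 and Ccl8) and for 5 in males, all of them chemokines. Such separation was found for 5.61% of all probe sets in females and 7.87% in males. The smaller female count goes with a single array: SHS female replicate 4 lay above every air female for 2 of 5 chemokines, and the other 7 SHS arrays lay above every air array of their sex for all 5. The median shift of the 5 chemokines over the air mean was 0.13 on SHS female replicate 4, 0.85, 1.11 and 1.07 on SHS females 1 to 3, and 0.73 to 0.85 on the SHS males. With both SHS arrays numbered 4 left out, a setting added after the data were seen, all 5 chemokines were called in each sex. Of all 45037 probe sets that fit called 3954 in females and 3315 in males, against 1294 and 2332 in the main fit. SHS female replicate 4 was the lowest of its group for all 5 chemokines, so leaving it out raises their female differences. SHS male replicate 4 was the lowest for 3 of them and the highest for 2.

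**Figure D3:**
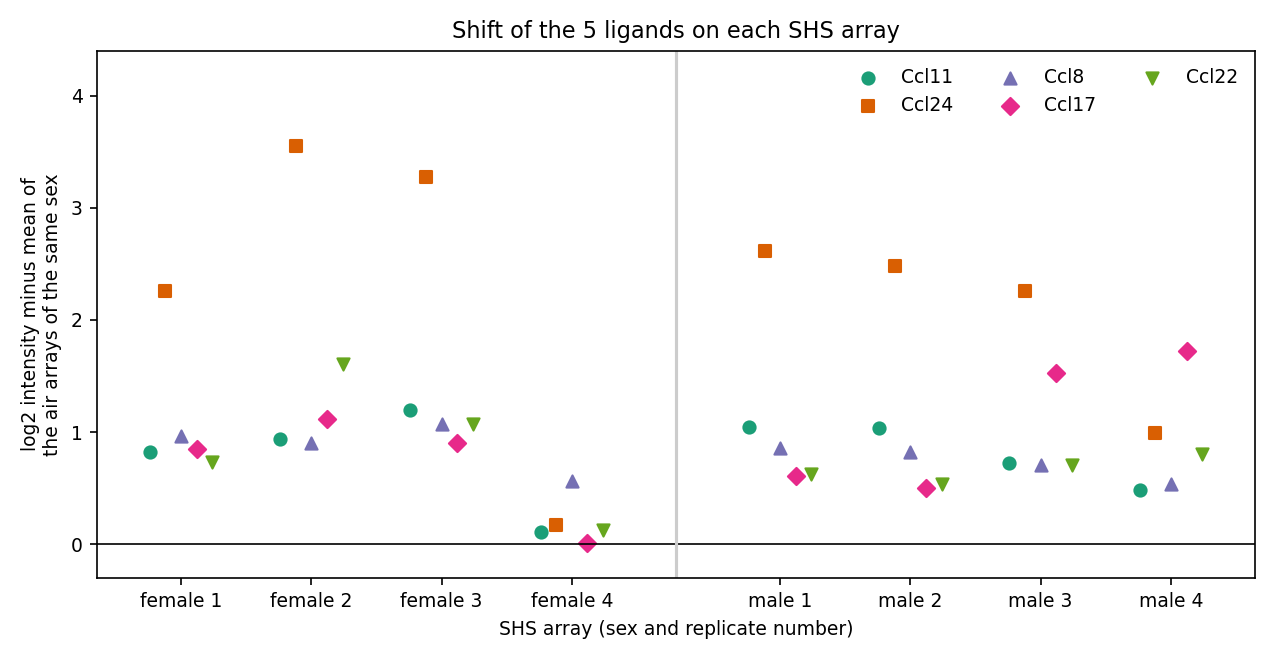
Log2 intensity of the 5 chemokines on each of the 8 SHS arrays, minus the mean of the 4 air arrays of the same sex; each symbol is 1 gene. SHS female replicate 4 has a median shift of 0.13, against 0.73 to 1.11 on the other arrays, and in males Ccl17 is highest on replicate 4, where Ccl24 is lowest.

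The SHS effect itself did not differ detectably between the sexes. None of the 7 genes passed the test of the female effect minus the male effect (adjusted p 0.725 to 0.974, limma), and none had an unadjusted p under 0.05. Among all probe sets 0 of 45037 (0%) passed, with 3709 at an unadjusted p under 0.05. The 95% intervals were wide: the female minus male effect was 0.23 for Ccl24 (-1.31 to 1.77), -0.37 for Ccl17 (-1.12 to 0.38), 0.22 for Ccl22 (-0.42 to 0.85) and -0.06 for Ccl11 (-0.66 to 0.55). The calls of Ccl11 and Ccl17 in males alone, and of Ccl22 in females alone, are therefore not shown to be sex-specific.

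Neither receptor passed the test. Ccr3 read 8.07, 7.97, 8.63 and 7.01 in SHS females, against 7.87, 8.67, 7.97 and 8.11 in air females, and 7.94, 8.17, 7.87 and 7.21 in SHS males, against 8.20, 7.94, 7.94 and 7.72 in air males. In both sexes the lowest array was SHS replicate 4 and the rest overlapped. The difference was -0.24 in females (95% interval -0.79 to 0.32, adjusted p = 0.732, limma) and -0.15 in males (-0.71 to 0.40, adjusted p = 0.806, limma). Without the SHS replicate 4 of that sex it was 0.07 in females and 0.04 in males.

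Ccr4 read 6.28, 6.11, 6.00 and 6.05 in SHS females, against 5.88, 6.28, 6.06 and 6.13 in air females, and 5.67, 5.93, 6.06 and 6.13 in SHS males, against 6.16, 6.14, 6.28 and 6.01 in air males. Its values overlapped in both sexes. The difference was 0.02 in females (95% interval -0.20 to 0.24, adjusted p = 0.948, limma) and -0.20 in males (-0.42 to 0.02, adjusted p = 0.298, limma). The intervals of Ccr4 exclude a doubling in either direction. Its mean lay below the 40th percentile of all probe sets, 6.38.

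The chemokines did not all vary together between animals. With each group centred on its mean, so that the SHS difference is removed, Ccl11 and Ccl8 correlated over 16 arrays at r = 0.90 (Spearman's rho 0.90), and at 0.85 without SHS female replicate 4 and 0.84 without the 2 arrays farthest from the median. Ccl11 and Ccl24 correlated at r = 0.85 (rho 0.82), 0.73 without SHS female 4 and 0.72 without the 2 farthest. Ccl8 and Ccl24 had r = 0.69 (rho 0.66), 0.51 and 0.64. Ccl17 followed Ccl22 at r = 0.64 (rho 0.64), which was 0.41 without SHS female 4 and 0.41 without the 2 farthest arrays. Ccl22 had r = 0.73 with Ccl24 (rho 0.55), which was 0.39 without SHS female 4 and 0.21 without the 2 farthest, and r = 0.56 with Ccl11 (rho 0.41), 0.19 and 0.38. Ccl22 with Ccl8 gave 0.39 (rho 0.27), 0.016 and 0.18. Ccl17 had r = 0.00 with Ccl8 (rho -0.00), which became -0.43 without SHS female 4 and -0.30 without the 2 farthest. Ccl17 with Ccl24 gave 0.23 (rho 0.09), -0.46 and -0.18. In SHS males, replicate 4 was the lowest of its group for Ccl11, Ccl24 and Ccl8 and the highest for Ccl17 and Ccl22. These coefficients describe 16 arrays out of 21 pairs of members and were not tested.

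The genes whose pattern was most like each chemokine were sought over the 16 arrays with each sex centred on its own mean, a measure that contains the SHS difference. For Ccl24 they were Fcgr2b (inhibitory receptor for IgG, r = 0.99), Pdcd1lg2 (a ligand of PD-1, 0.99), Got1 (cytosolic aspartate aminotransferase, 0.99), Nans (a sialic acid synthase, 0.98) and Ocstamp (a membrane protein of multinucleated osteoclasts, 0.98). With each group centred, r of these 5 with Ccl24 was 0.95 to 0.98. SHS female replicate 4 was the lowest of its group for every chemokine. How far it carries these coefficients, and those of the other chemokines below, was not tested. For Ccl11 they were Aass (lysine breakdown, 0.98), Fcgr2b (0.96), Pcx (pyruvate carboxylase, 0.96) and the cell cycle genes Cks2 (0.96) and Cdk1 (0.95), with 0.90 to 0.94 when groups were centred. Fcgr2b was thus among the 5 nearest genes of both eotaxins.

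For Ccl8 all 5 genes are known from dividing cells: Bub1b (0.98), Hells (0.98), Shcbp1 (0.98), Top2a (0.98) and Kif2c (0.98). They had r of 0.85 to 0.89 when groups were centred, again with SHS female replicate 4 included. The nearest genes of Ccl17 were Txlna (0.95), Hspe1 (a mitochondrial chaperonin, 0.93), Tnfsf9 (a costimulatory ligand, 0.93), Nr4a3 (an orphan nuclear receptor, 0.93) and Mgl2 (a lectin of dendritic cells and macrophages, 0.92). Those of Ccl22 were Snx8 (a sorting nexin, 0.98), Hk3 (a hexokinase of myeloid cells, 0.96), Vmp1 (0.96), Cfp (properdin, 0.96) and Syn1 (0.96). Once groups were centred, r was 0.79 to 0.88 for the genes nearest Ccl17 and 0.90 to 0.94 for those nearest Ccl22. No gene was among the 5 nearest of both Ccr4 ligands.

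In the genome the ligands sit in clusters, so their neighbours were read as well. The 2 protein-coding genes on either side of each member were taken from RefSeq (GRCm38.p6), a choice made after values were seen. On chromosome 11 the order is Ccl2, Ccl7, Ccl11, Ccl12, Ccl8, Ccl1 and Tmem132e. Ccl7, an attractant of monocytes, differed by 0.92 in females (adjusted p = 0.00609) and 1.46 in males (adjusted p = 0.000189), and Ccl12 by 0.75 (adjusted p = 0.00788) and 0.61 (adjusted p = 0.0193), all by limma. Ccl2 passed in males (1.06, adjusted p = 0.00793) and not in females (0.72, adjusted p = 0.0801). Ccl1, a ligand of Ccr8 at the end of the cluster, gave 0.44 in females (adjusted p = 0.185) and 0.14 in males (adjusted p = 0.704), and Tmem132e beyond it 0.00 and 0.08. Ccl2 (0.91, adjusted p = 0.0112) and Ccl1 (0.61, adjusted p = 0.0175) passed in females without SHS female replicate 4, by limma. These chemokines are related in sequence, and whether one gene's RNA reached another's probes was not tested.

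On chromosome 8, Cx3cl1 (fractalkine) lies between Ccl22 and Ccl17 and did not pass: it differed by -0.16 in females (adjusted p = 0.475, limma) and 0.17 in males (adjusted p = 0.334, limma). On the far side of Ccl17, Ciapin1 passed in males with a small difference (0.28, adjusted p = 0.0205, limma) and not in females (0.14, adjusted p = 0.297, limma). The measured neighbours of Ccl24 on chromosome 5, Hip1 and Rhbdd2, were not called in either sex. Beside Ccr3 on chromosome 9, Ccr1 passed in females (0.84, adjusted p = 0.0334, limma) and not in males (0.27, adjusted p = 0.507, limma), and Ccr2 in neither (0.15 and -0.11).

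**Figure D4:**
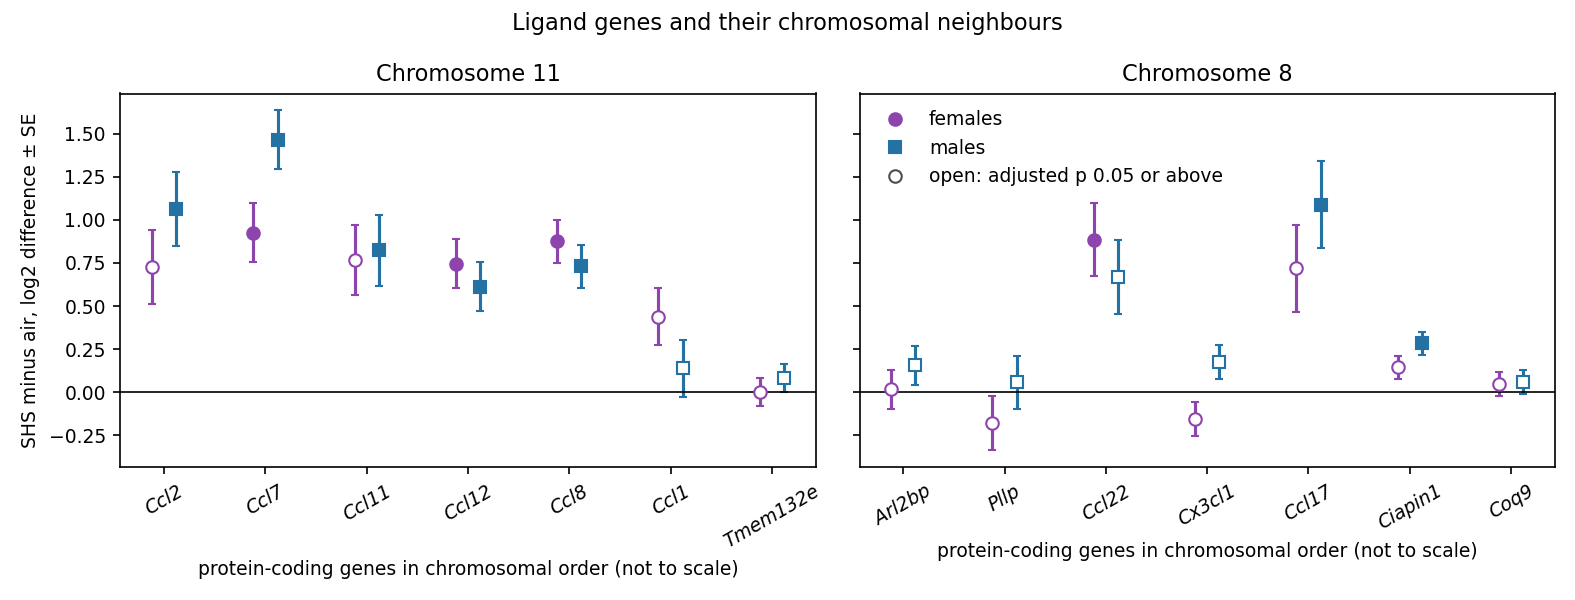
Log2 difference between SHS and air (± SE of the model) for the ligand genes and their neighbours on chromosomes 11 and 8 in chromosomal order, in females (circles) and males (squares); filled symbols passed an adjusted p of 0.05. On chromosome 11 the genes from Ccl2 to Ccl8 lie at 0.61 to 1.46 and Ccl1 and Tmem132e lower, and on chromosome 8 Cx3cl1 lies near 0 between Ccl22 and Ccl17.

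Further chemokines and receptors of the CC family moved in part. Of 13 other CC chemokines measured, 2 rose in females (Ccl7 and Ccl12) and 4 in males (these and Ccl2 and Ccl4, the last by 0.61, adjusted p = 0.00258, limma), with a median difference of 0.33 in females and 0.17 in males. On leaving out SHS female replicate 4, 8 rose in females (median 0.61), with Ccl9 (1.09, adjusted p = 0.000661) and Ccl3 (1.12, adjusted p = 0.00245) among them by limma, and 5 in males. That fit called 3604 of all 45037 probe sets in females, in either direction, against 1294 in the main fit. Of 11 other CC receptors measured, the list that includes the scavenging receptor Ackr3, Ccr1 rose in females and Ackr3 fell in males (-0.32, adjusted p = 0.0229, limma). The medians of that list were 0.26 in females and 0.07 in males. With SHS female replicate 4 left out, 4 of the 11 rose and 1 fell in females, and with both SHS arrays numbered 4 left out, 3 rose and 1 fell in males. The latter fit called 3315 of all probe sets in males, against 2332 in the main fit.

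Interleukins 4 and 13 are known to induce several of these chemokines. Of 14 measured genes of this axis, 2 rose in females, and 2 rose and 2 fell in males, with medians of 0.13 and 0.15. Il33, an alarmin of epithelial cells, rose by 0.52 in females (adjusted p = 0.044) and 0.88 in males (adjusted p = 0.00117), and Il13ra2, the decoy receptor of interleukin 13, by 0.81 (adjusted p = 0.0307) and 1.16 (adjusted p = 0.0024), all by limma. In males Tslp, another alarmin, fell by 0.67 (adjusted p = 0.0112) and Il13ra1, the signalling receptor chain, by 0.38 (adjusted p = 0.0093). Il4 gave 0.36 in females (adjusted p = 0.28) and 0.34 in males (0.254), Il5 0.47 (0.0866) and 0.37 (0.144), and Il13 0.47 (0.217) and 0.56 (0.0965). All Il5 values were low, between 4.95 and 6.04, below the 40th percentile of probe set means, 6.38. Stat6, the transcription factor of interleukin 4 and 13, gave -0.02 (0.915) and -0.05 (0.743). In the fit without SHS female replicate 4, 6 genes of the axis rose and 1 fell in females, and the 6 included Il4 (0.51, adjusted p = 0.0493), Il5 (0.59, adjusted p = 0.0118) and Il13 (0.67, adjusted p = 0.0183), by limma. This refit was chosen after the data were seen. The array was the lowest of its group for Il4, Il5 and Il13, so leaving it out raises their female differences. Over all probe sets the fit called 3604 in females, against 1294 in the main fit. Il13 also passed in males in that fit (0.56, adjusted p = 0.0347, limma), where only the shared estimate of the spread differs. With both SHS arrays numbered 4 left out, Il5 (0.50, adjusted p = 0.0101) and Il13 (0.60, adjusted p = 0.0392) passed in males and Il4 did not (0.44, adjusted p = 0.0762), by limma. This setting too was added after the data were seen. SHS male replicate 4 was the lowest of its group for Il4 (6.63) and Il5 (5.14) and below the group mean for Il13 (7.03 against 7.16). Leaving it out thus raises their male differences. Of all probe sets 3315 were then called in males, against 2332 in the main fit.

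Eosinophils are the main carriers of Ccr3. Of 7 measured genes listed as their markers, 4 had a positive difference in each sex, and the median was 0.15 in each. Only 1 was called higher in each sex, Rnase2a (1.26, adjusted p = 0.00235 in females and 1.20, adjusted p = 0.00265 in males, limma). Rnase2a is a ribonuclease whose family has near-identical copies that probes may not separate. Whether eosinophils carried its RNA in whole lung was not tested. Siglecf and Prg2 were chosen after their values were seen. Siglecf, a surface lectin of eosinophils and of mouse alveolar macrophages, differed by -0.32 in females (adjusted p = 0.567) and -0.54 in males (adjusted p = 0.216). Epx, the eosinophil peroxidase, differed by 0.79 in females (adjusted p = 0.377) and 0.94 in males (adjusted p = 0.214), and the granule protein Prg2 by 0.60 (0.47) and 0.15 (0.872). Epx read 7.12, 7.09, 7.495 and 5.05 in SHS females, against 6.28, 5.80, 5.602 and 5.91 in air females, so that SHS females 1 to 3 lay above every air female and replicate 4 below. Without SHS female replicate 4, 3 of the 7 markers were called higher in females, with Epx at 1.34 (adjusted p = 0.00985) and Prg2 at 1.11 (adjusted p = 0.00998), by limma. That array was the lowest of its group for Epx and Prg2, so leaving it out raises their female differences. Over all probe sets the fit called 3604 in females, against 1294 in the main fit. In males that fit called Epx too (0.94, adjusted p = 0.0489, limma). With both SHS arrays numbered 4 left out, a setting added after the data were seen, 3 markers were called in males. Epx was at 1.27 (adjusted p = 0.00171) and Prg2 at 0.48 (adjusted p = 0.029), by limma. SHS male replicate 4 was the lowest of its group for Epx (5.58) and Prg2 (6.92), so leaving it out raises their male differences. That setting called 3315 of all probe sets in males, against 2332 in the main fit. Siglecf was then -0.08 in females (adjusted p = 0.844) and -0.31 in males (adjusted p = 0.28), by limma. The list's mean log2 intensity was 8.32, 8.19, 8.49 and 7.31 in SHS females, against 7.94, 7.73, 7.63 and 7.76 in air females, and 8.47, 8.41, 8.18 and 7.65 in SHS males, against 7.97, 8.04, 7.69 and 8.10 in air males. Both SHS arrays numbered 4 lay below every air array of their sex, as they did for Ccr3 itself.

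With groups centred, Ccr3 followed Prg2 at r = 0.81 (rho 0.65; 0.59 without SHS female 4; 0.62 without the 2 farthest arrays) and Siglecf at 0.74 (rho 0.57; 0.55; 0.48). Epx gave 0.74 (0.46 without SHS female 4), Prg3 0.67 (0.31), Il5ra 0.65 (0.58) and Cd33 0.56 (0.51). Of the basophil and mast cell markers, Hdc gave 0.61 (0.55) and the others -0.48 to 0.23. Ccr3 with Ccl24 gave r = 0.72 (rho 0.41), which was 0.39 without SHS female 4 and 0.38 without the 2 farthest, so that coefficient rests in good part on these arrays. Ccr3 against Rnase2a, the only listed eosinophil marker called in the main fit, gave 0.43 (rho 0.20), and 0.01 without SHS female 4. All are descriptions over 16 arrays, without a test.

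**Figure D5:**
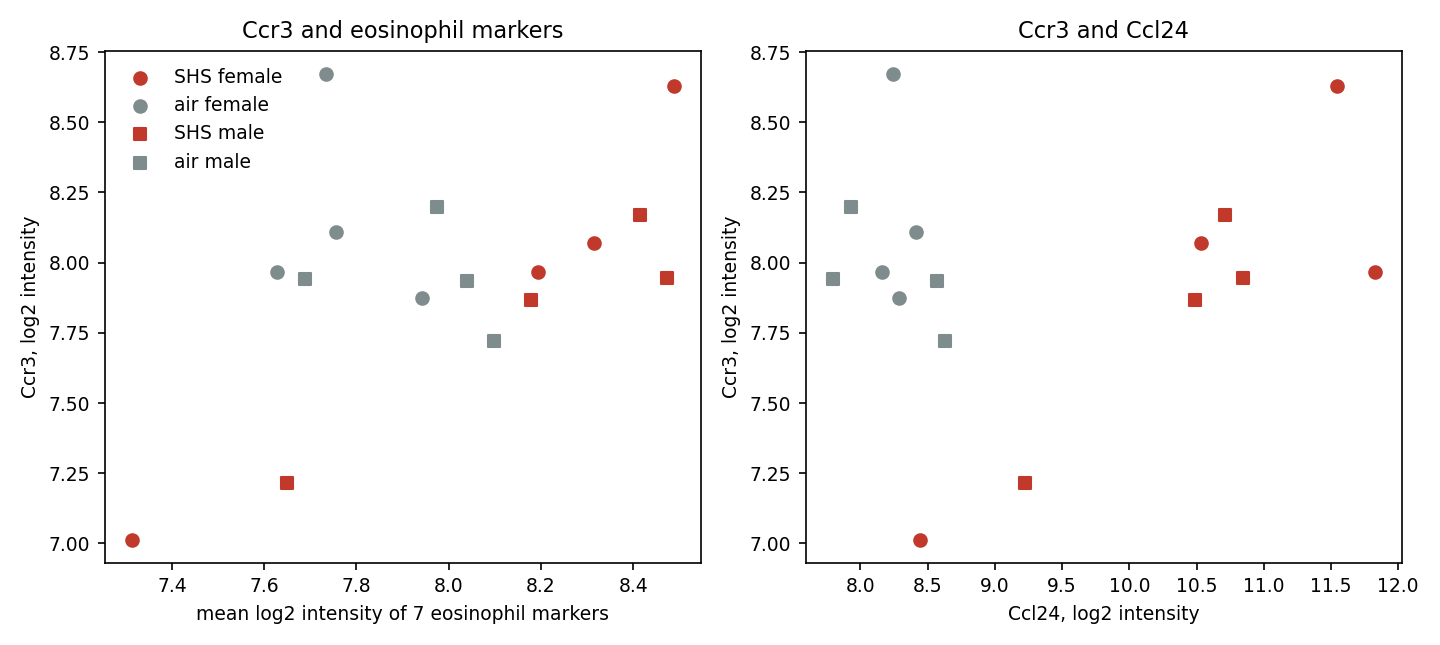
Ccr3 on each of 16 arrays against the mean of 7 eosinophil markers (left) and against Ccl24 (right), all as log2 intensity; circles are females and squares males, red SHS and grey air. The 2 lowest Ccr3 values, 7.01 and 7.21, are the SHS arrays numbered 4, and within each sex SHS and air arrays overlap in Ccr3 and do not overlap in Ccl24.

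Macrophages and dendritic cells are known sources of several of these chemokines. Of 9 markers listed for interstitial macrophages, 3 rose in each sex: the mannose receptor Mrc1, the haemoglobin scavenger receptor Cd163 and the folate receptor Folr2. Which macrophages carried these RNAs in whole lung was not tested. In females Mrc1 rose by 0.72 (adjusted p = 0.0027), Cd163 by 0.88 (adjusted p = 0.0112) and Folr2 by 0.60 (adjusted p = 0.00138), by limma. In males Mrc1 rose by 0.66 (adjusted p = 0.004), Cd163 by 1.41 (adjusted p = 0.000392) and Folr2 by 0.69 (adjusted p = 0.000437), by limma. The median of the list was 0.38 in each sex. If SHS female replicate 4 was left out, 6 of the 9 rose in females and 5 in males, the complement genes C1qa and C1qc being added in both. Calls over all probe sets in females also went from 1294 to 3604 in that fit. The list's mean log2 intensity was 10.25 to 10.41 in SHS females, against 9.92 to 10.04 in air females, and 10.17 to 10.30 in SHS males, against 9.61 to 9.87 in air males. The groups thus did not overlap, and SHS female replicate 4 did not fall among the air females. In males this separation was not particular to the list. The lowest SHS male mean also exceeded the highest air male mean for neutrophil (9.04 against 8.80), dendritic cell (9.21 against 9.11) and smooth muscle markers (10.29 against 10.25). So it did for the other CC chemokines (8.36 against 8.13) and the type 2 axis (7.83 against 7.80). In females the ranges of these further lists overlapped. What the interstitial macrophage markers had to do with the chemokine differences was not tested.

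Of 10 dendritic cell markers none was called in females and 2 in males, Mgl2 (0.65, adjusted p = 0.00667, limma) and Cd209a (0.46, adjusted p = 0.0371, limma). 4 of the 10 were called higher in females without SHS female replicate 4, Mgl2 among them (0.59, adjusted p = 0.00278, limma). No call was made among 8 alveolar macrophage, 9 basophil and mast cell, 7 smooth muscle, 5 thymus and 4 adipose markers in either sex. 1 gene was called in each of the lists of 10 T cell markers (Cd8b1, 0.40 in females, adjusted p = 0.0304), 8 fibroblast markers (Tcf21, -0.56 in females, adjusted p = 0.00315) and 7 B cell markers (Fcer2a, 1.03 in females, adjusted p = 0.0229, and 0.89 in males, adjusted p = 0.0368). Of 6 neutrophil markers, Il1r2 rose in females (0.74, adjusted p = 0.0127) and males (1.08, adjusted p = 0.000713) and Cxcr2 in males (0.59, adjusted p = 0.0161), all by limma. The 6 cardiac muscle markers, present where pulmonary veins or heart are taken along, had no call but a median of -0.03 in females and 0.79 in males, and their part in the male differences was not tested. When SHS female replicate 4 was left out, calls in females were 1 alveolar macrophage, 1 basophil and mast cell, 2 smooth muscle, 2 T cell, 2 B cell and 1 neutrophil marker higher and 2 fibroblast markers lower. Among all probe sets 3604 were then called in females, against 1294 in the main fit. In males that fit called 1 smooth muscle, 1 B cell and 3 neutrophil markers higher, and 1 alveolar macrophage and 1 fibroblast marker lower.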

How the data were processed

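Total RNA of 16 left lungs was hybridized to Affymetrix whole-genome mouse arrays, per the labels. The authors deposited 1 log2 intensity per probe set and array (range 2.58 to 15.2), with the base settled from the values. How probes were summarised and arrays normalized is not stated in labels or headers, and limma is named in the submitters' processing notes with no role. Of 45101 features, 64 controls were left out. Group means of the 4 groups were fitted with limma 3.58.1 in R 4.3.3 (package data.table, version 1.17.8), with 12 residual and 5.56 prior degrees of freedom. Tests were two-sided, with Benjamini-Hochberg adjustment across the 45037 probe sets and calls at an adjusted p of 0.05. Genes of a list entered through their probe set of highest mean. The 4 arrays per group limit the precision.

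Named were all members, the 5 genes most correlated with each eotaxin or called member, up to 4 called genes per list and sex, and Il4, Il5, Il13, Stat6, Ccr8 and Epx. Prg2, Siglecf and the neighbours by position were chosen after their values were seen. Members, lists and tests were chosen with earlier results of these data known. Alternatives were other normalizations, a filter at the 40th percentile, a replicate block, weights for arrays, the 8 compared arrays alone, a robust trended prior and each array left out. List genes were also fitted without the SHS arrays numbered 4, chosen after seeing the data. Figures and correlations used Python 3.11.15 and matplotlib 3.10.9.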

Additional observations from a re-analysis of the deposited data

Results flagged for a closer look

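In all, 172 groups of 43 genes, the 7 members among them, were searched for a single array far from the other 3 of its group by Dixon's 95% critical value. 13 groups held one, none of them a group of a member. The 5% of groups that chance gives is no fair measure here. Some of the genes were chosen after their values were seen, and the genes share arrays. In 6 of the 13 the array was SHS female replicate 4, the lowest of its group, with log2 intensities of 5.05 for Epx, 6.52 for Prg2, 6.17 for Il4, 11.66 for Il33, 9.57 for Mgl2 and 5.91 for Ccl1. SHS male replicate 4 was the lowest of its group for Rnase2a (13.04) and the highest for Cd163 (9.41). Among SHS males, replicate 3 was high for Ccl2 (9.51) and replicate 1 low for Ccr8 (4.83). Among air females, replicate 3 was low for Ccl1 (5.76) and replicate 1 for Ciapin1 (9.56), and air male replicate 3 was low for Ciapin1 (9.32).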

How the results depend on the processing

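The directions of the 5 chemokines within each sex were the same in every alternative run. Main counts were 1294 probe sets and 3 members called in females and 2332 probe sets and 4 members in males. With the 8 arrays of the compared groups alone, the counts were 448 and 1 in females and 2760 and 5 in males. With array weights they were 3985 and 5 in females and 4398 and 5 in males. Without both SHS arrays numbered 4, added after seeing the data, they were 3954 and 5 in females and 3315 and 5 in males. Leaving out single arrays gave 657 to 3604 probe sets and 1 to 5 members in females, and 1073 to 3153 probe sets and 1 to 5 members in males, the highest of each count of probe sets without SHS female replicate 4. The cause of these shifts was not tested, and the smaller fits hold fewer arrays.

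Quantile normalization and centring on the array median changed no member's call. A filter at the 40th percentile removed Ccr4 and made Ccl11 in females a call (adjusted p = 0.0355, limma). With the replicate number as a block, 3 members were called in females and 4 in males and no member's call changed (1537 and 2439 probe sets). Same-numbered SHS and air arrays correlated at -0.08 to 0.27 in females and 0.02 to 0.12 in males after group centring. These values compare SHS with air within a sex only. They cannot decide whether a number stands for a shared litter or processing day.

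Signs turned only in values that never passed the test. Without both SHS arrays numbered 4, Ccr3 was 0.067 in females and 0.043 in males, and the female minus male effect was 0.052 for Ccl11, 0.077 for Ccl17 and 0.024 for Ccr3. With single arrays left out, Ccr4 ranged from -0.047 to 0.088 and Ccr3 from -0.47 to 0.067 in females, Ccr3 from -0.28 to 0.043 in males, and the female minus male effect from -0.20 to 0.16 for Ccl11, -0.024 to 0.47 for Ccl22, -0.19 to 0.94 for Ccl24 and -0.32 to 0.22 for Ccr3. No probe set passed the test of that effect under any setting.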
